A study of Mus musculus with 30 samples.

Results

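The genes that carry, store, oxidize and degrade vitamin A were examined in the liver of diabetic mice fed sebacic acid (SA), a dicarboxylic fatty acid. They were 9 of the 16593 genes named on the array. The plasma carriers were Rbp4 and Ttr, and the aldehyde dehydrogenases were Aldh1a1 and Aldh1a7. The others were the retinol dehydrogenases Rdh7, Rdh10 and Rdh11, the retinoic acid hydroxylase Cyp26a1 and the retinol esterifying enzyme Lrat. All probes annotated to these symbols were taken, which gave 10 of 25697 probes. Rbp4 was picked for its decrease in the comparison reported here, so its values are given as a description and were not tested.

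The livers came from male mice of strain BKS.Cg-m+/+Leprdb/J (stock 000642), homozygous for the db mutation of the leptin receptor, which makes them obese and diabetic. All mice of both groups carried this mutation and there was no lean group. The SA_15% group (n = 15) ate chow with 77.6 g of SA per kg of food, labelled as 15% and as a daily intake near 9 g/kg body weight, and the Ctrl group (n = 15) ate the chow alone. Mice were aged 6 to 8 weeks when first housed, were then left to habituate, and were supplemented for 6 weeks. One Illumina MouseRef-8 v1.1 array was run for each liver, and replicate numbers refer to single mice. Mean intensity per array was 327 to 498 (median 415) in SA_15% livers and 314 to 451 (median 396) in Ctrl livers, and no pair of arrays was a duplicate. Values below are log2 signals after quantile normalization, so that equal steps are equal ratios of intensity. Since whole liver was sampled, fewer cells of a type and less RNA per cell cannot be told apart.

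Retinol leaves the hepatocyte bound to RBP4, the retinol-binding protein of plasma, and RBP4 circulates in a complex with transthyretin, the product of Ttr, which also carries thyroxine. Inside the liver most retinol is stored as retinyl esters in the lipid droplets of stellate cells, where LRAT makes the esters. Retinol dehydrogenases oxidize retinol to retinal, and ALDH1A1 oxidizes retinal to retinoic acid. Retinoic acid binds nuclear receptors that pair with RXR and act on direct repeats of a hexamer in DNA. CYP26A1 hydroxylates retinoic acid and starts its removal, and its gene is among the best known targets of retinoic acid.

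RefSeq promoter windows on build GRCm38.p6, which were 300 bases long and began 250 bases upstream of each start site, were searched for 7 of the 9 genes. Windows of members on 1 chromosome were left out, so a gene not searched is not shown to lack a window or a match. The windows of 4 of these 7 genes are printed here in part, each ending at the base before its start site. The 4 include the tested member with the smallest adjusted p among those lower, in a probe near the background. They also include a pair of near copies and the gene the members were gathered around. The Cyp26a1 stretch (chr19:37697688-37697807, plus strand) carries in capitals both copies of a direct repeat with 5 bases between them. The Aldh1a1 (chr19:20601848-20601967, plus strand) and Aldh1a7 (chr19:20727557-20727676, minus strand) stretches show in capitals the bases at which they differ from each other. In the Rbp4 stretch (chr19:38124812-38124911, minus strand) the capitals mark a TATAAA sequence. The Rbp4 window was chosen because it holds this sequence, which was not listed for the other windows of the members.
Cyp26a1: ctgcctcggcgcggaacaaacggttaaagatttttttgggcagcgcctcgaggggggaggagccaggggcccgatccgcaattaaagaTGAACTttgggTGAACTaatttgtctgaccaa
Aldh1a1: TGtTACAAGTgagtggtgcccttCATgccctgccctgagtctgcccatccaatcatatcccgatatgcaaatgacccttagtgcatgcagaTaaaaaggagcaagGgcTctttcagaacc
Aldh1a7: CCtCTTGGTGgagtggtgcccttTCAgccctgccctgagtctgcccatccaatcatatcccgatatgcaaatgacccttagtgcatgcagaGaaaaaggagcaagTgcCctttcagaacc
Rbp4: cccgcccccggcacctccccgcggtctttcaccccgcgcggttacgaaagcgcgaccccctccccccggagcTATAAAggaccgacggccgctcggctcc
Direct repeats of the consensus hexamer AGGTCA or of its common forms, which are AGTTCA as printed for Cyp26a1 on the opposite strand, then GGGTCA and, as the last of the forms allowed, GGTTCA, were searched in any pairing, on both strands with spacers of 1, 2 and 5 bases, the spacings known for retinoic acid receptors. The only match among the searched windows of the members was the one printed for Cyp26a1. It lay on the minus strand in relation to the gene, from -32 to -16 bases of the start site. A repeat with a spacer of 5 was found in 32 of 32851 windows (0.0974%). The spacers of 1 and 2, searched as well, were found in 73 (0.222%) and 88 (0.268%) of the windows. The Aldh1a1 and Aldh1a7 stretches were identical at 105 of 120 bases (87.5%), with an identical run of 65 bases. TATAAA, searched on the gene's own strand in the 250 bases before the start site, was found in 2494 of 32851 windows (7.59%). Since the Rbp4 window was chosen for the sequence, nothing is read from that share. These matches describe the letters of the windows and no binding was measured.

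Of the plasma carriers, Rbp4 was lower and Ttr was higher in SA_15% livers. The log2 signal of Rbp4 (probe ILMN_1252185) ran from 11.80 to 12.36 in SA_15% livers (median 12.12) and from 12.42 to 12.92 in Ctrl livers (median 12.62). All 15 SA_15% livers lay below all 15 Ctrl livers. The means were 12.09 ± 0.16 in SA_15% and 12.67 ± 0.15 in Ctrl livers (SD, n = 15 each), a log2 difference of -0.58 and a fold of 0.671. Groups apart in this way were seen for 65 of the 11329 probes past the detection filter (0.574%), but Rbp4 had been picked on these values and nothing is read from that share. Before normalization the Rbp4 signal was 3278 to 5611 intensity units in SA_15% livers and 4834 to 8869 in Ctrl livers, which overlapped.

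The log2 signal of Ttr (probe ILMN_2443330) ran from 14.57 to 14.90 in SA_15% livers (median 14.77) and from 14.24 to 14.70 in Ctrl livers (median 14.51). All 15 SA_15% livers were above the Ctrl median and 9 were above all Ctrl livers. The means were 14.75 ± 0.08 in SA_15% and 14.51 ± 0.15 in Ctrl livers (SD, n = 15 each), so that Ttr rose by 0.24 (standard error 0.04, adjusted p = 1.3e-04 from limma). Ttr was among the brightest probes of the array, and of 66 probes with a mean log2 signal of at least 14 no other had a positive difference as large. The median difference of those 66 probes was 0.03, and 12 of them were higher and 11 lower. The brightest probe of an array reached 33438 to 44013 intensity units in SA_15% livers and 25523 to 35474 in Ctrl livers, and the part of this in the Ttr value was not tested. No correlation of Rbp4 with Ttr over the livers of a group passed, with r = -0.10 in SA_15% livers (permutation p = 0.72, adjusted p = 0.99, rho = -0.06) and r = -0.24 in Ctrl livers (permutation p = 0.39, adjusted p = 0.83, rho = -0.17).

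**Figure D1:**
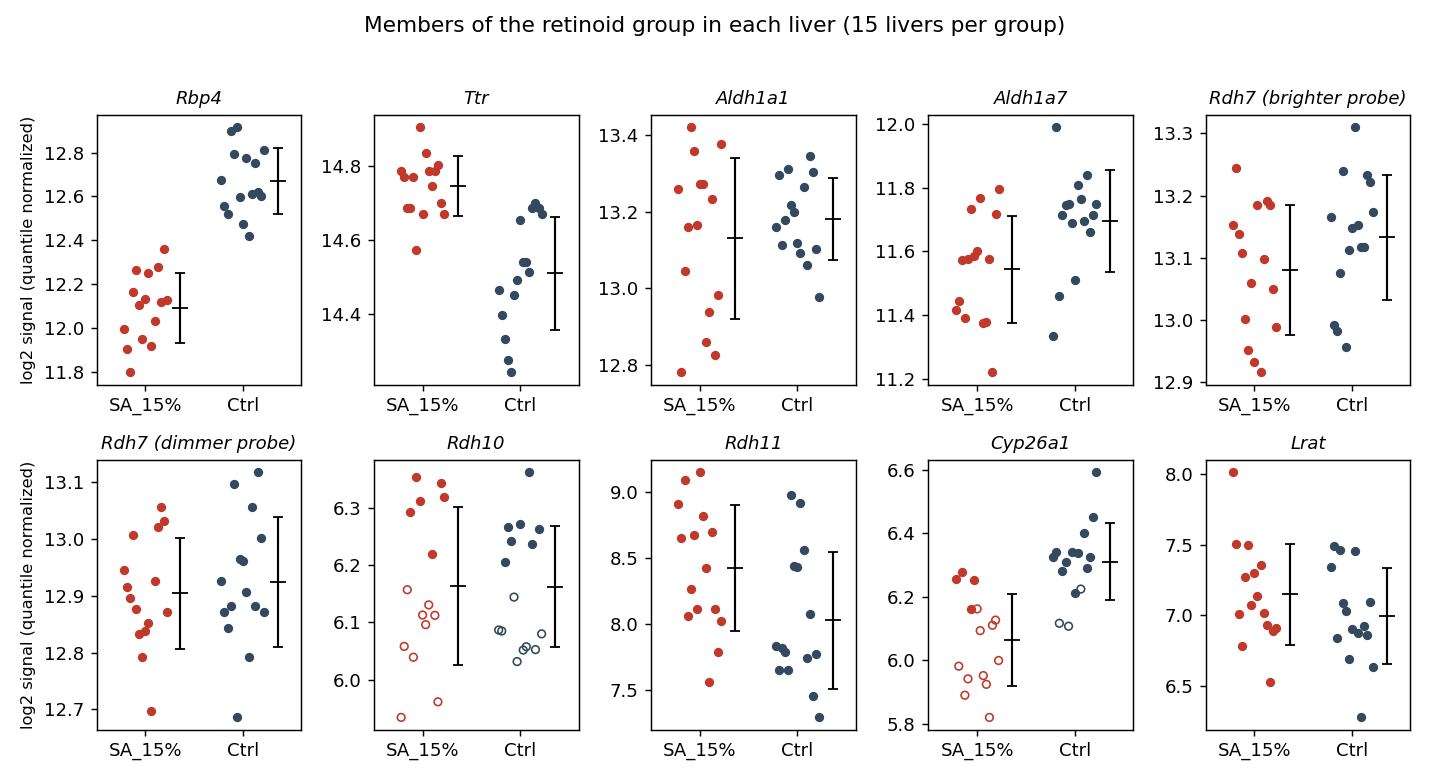
Log2 signal (vertical axis, quantile normalized, a scale of its own in each panel) of the 10 probes in each of 15 SA_15% livers and 15 Ctrl livers. Filled points had a detection p-value under 0.05 and open points did not, and bars give the mean ± SD. Rbp4 shows groups that do not overlap, Ttr lies above the Ctrl median in all 15 SA_15% livers, and most SA_15% points of Cyp26a1 are open.

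Cyp26a1, the enzyme that removes retinoic acid, was lower in SA_15% livers in a probe close to the background. Its probe (ILMN_2691295) was detected in 4 of 15 SA_15% livers and in 12 of 15 Ctrl livers, so it passed the filter mostly through the Ctrl livers and a count of calls that includes it leans towards a difference. The log2 signal was 5.82 to 6.28 (median 6.09) in SA_15% livers and 6.11 to 6.59 (median 6.33) in Ctrl livers. All 15 SA_15% livers lay below the Ctrl median and 8 lay below all Ctrl livers. The signal averaged 6.06 ± 0.14 in SA_15% and 6.31 ± 0.12 in Ctrl livers (SD, n = 15 each) and fell by 0.25 (standard error 0.05, adjusted p = 1.8e-04 from limma). A log2 difference of a probe near the background can understate a change, and with the background correction of neqc the difference was -0.46. The part of background signal in the Cyp26a1 difference was not tested. Among 2296 tested probes with a mean log2 signal under 6.5, 294 were lower and 266 were higher. Of the 2296, 27 were detected in at least 8 more Ctrl than SA_15% livers, as Cyp26a1 was. More of them, 65, were detected in at least 8 more SA_15% than Ctrl livers.

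The dehydrogenase pair on chromosome 19 showed small differences. Aldh1a1, the main retinal dehydrogenase of adult liver in the mouse (probe ILMN_1222734), ran from 12.78 to 13.42 (median 13.17) in SA_15% livers and from 12.98 to 13.34 (median 13.18) in Ctrl livers, so that the groups overlapped, with 4 SA_15% livers below and 3 above all Ctrl livers. Its difference was -0.05 (95% interval -0.17 to 0.07, adjusted p = 0.52 from limma). The SA_15% livers were spread more widely, with an SD of 0.21 in SA_15% and 0.11 in Ctrl livers, a contrast that was not tested. Aldh1a7, a close relative of Aldh1a1 (probe ILMN_1218981), ran from 11.22 to 11.80 (median 11.57) in SA_15% livers and from 11.33 to 11.99 (median 11.71) in Ctrl livers. It fell by 0.15 (standard error 0.06, adjusted p = 0.039 from limma), with 11 of 15 SA_15% livers below the Ctrl median. That call was lost when any one of 13 livers was left out (adjusted p up to 0.071), and with all probes tested or with array weights. Probes of such near copies can bind each other's transcripts, and the probe sequences were not used here.

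Of the retinol dehydrogenases none passed the test. Rdh7, a liver enzyme of the short-chain dehydrogenase family, had 2 bright probes. The brighter one (ILMN_2871249) ran from 12.92 to 13.24 (median 13.10) in SA_15% livers and from 12.96 to 13.31 (median 13.15) in Ctrl livers, a difference of -0.05 (95% interval -0.13 to 0.03, adjusted p = 0.30 from limma). The other (ILMN_1226515) differed by -0.02 (95% interval -0.10 to 0.06, adjusted p = 0.73 from limma). The groups overlapped for both probes, whose signals followed each other over the livers of a group with r = 0.61 in SA_15% and r = 0.61 in Ctrl livers, given as a description. With arrays only centred on their medians both probes passed as lower (-0.15 with adjusted p = 0.0090 and -0.14 with adjusted p = 0.049), under a scaling that moved the median difference of all tested probes to -0.07, against -0.01 with quantile normalization. Rdh10, which makes retinal in the embryo, was detected in 6 SA_15% and 7 Ctrl livers, with a mean of 6.16 in both groups (probe ILMN_2804091). It did not pass the filter and was not tested.

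Rdh11, a retinal reductase of the endoplasmic reticulum, varied more between livers than any other member. Its log2 signal (probe ILMN_2899318) ran from 7.56 to 9.15 (median 8.42) in SA_15% livers and from 7.29 to 8.98 (median 7.82) in Ctrl livers. The groups overlapped over nearly the whole range, although 13 of 15 SA_15% livers exceeded the Ctrl median. The means were 8.42 ± 0.48 in SA_15% and 8.03 ± 0.52 in Ctrl livers (SD, n = 15 each), a difference of 0.40 (95% interval 0.05 to 0.74) that did not pass (adjusted p = 0.064 from limma). It passed, among other alternatives, when SA_15% liver 11 or 14 or Ctrl liver 6, 9 or 10 was left out (lowest adjusted p = 0.025), with array weights and with the pooled error described under the processing. Lrat, which esterifies retinol in stellate cells (probe ILMN_2653227), ran from 6.53 to 8.01 (median 7.07) in SA_15% livers and from 6.28 to 7.49 (median 6.92) in Ctrl livers. Its difference was 0.15 (95% interval -0.09 to 0.39, adjusted p = 0.33 from limma), and 3 SA_15% livers lay above all Ctrl livers.

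Counted over the 8 members other than Rbp4, 7 passed the detection filter, of which 1 was higher (Ttr), 2 were lower (Aldh1a7 and Cyp26a1) and 4 did not pass the test. Over all 11329 probes tested 36.6% were called, 17.1% as higher and 19.4% as lower, and the 3 calls among 7 members (42.9%) lie near this background. The call of Cyp26a1 is among the 3, and its probe passed the filter mostly through the Ctrl livers. The median log2 difference of the 7 genes was -0.05, beside -0.01 for all probes tested.

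Genes around the members moved in both directions, and most differences were small. The counts that follow stand beside the 36.6% called among all probes. Of 10 genes that bind or take up retinoids and their lipoproteins, 4 were tested, and 3 were lower and none higher (median -0.19). Scarb1, the scavenger receptor that takes up HDL lipids and carotenoids, averaged 6.60 ± 0.15 in SA_15% and 6.97 ± 0.19 in Ctrl livers (SD, n = 15 each) and fell by 0.37 (adjusted p = 1.3e-05 from limma). Lrp1, a receptor for chylomicron remnants, fell by 0.28 (adjusted p = 0.0014). Crabp2, which hands retinoic acid to its receptor, fell by 0.10 near the background (adjusted p = 0.035), in a probe detected in 4 SA_15% and 12 Ctrl livers that passed the filter through the Ctrl livers as Cyp26a1 did. The Crabp2 call was lost when SA_15% liver 1, 11, 13 or 15 or Ctrl liver 12 or 14 was left out (adjusted p up to 0.063). Rbp2, the retinol-binding protein of enterocytes, differed by -0.05 (adjusted p = 0.40).

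Of 12 genes of retinyl ester and carotenoid enzymes, 8 were tested, and 2 were higher and 1 lower (median 0.03). Retsat, which saturates retinol, averaged 14.00 ± 0.17 in SA_15% and 13.77 ± 0.29 in Ctrl livers (SD, n = 15 each) and rose by 0.24 (adjusted p = 0.023 from limma), and the triglyceride lipase gene Pnpla2 rose by 0.21 (adjusted p = 0.016). Dgat1, an acyltransferase that can esterify retinol, fell by 0.15 (adjusted p = 0.010), while the carboxylesterase gene Ces1d differed by 0.10 (adjusted p = 0.066). Of 25 retinol and retinal dehydrogenases, the members aside, 12 were tested, and 3 were higher and 2 lower (median 0.03). Dhrs7 rose by 0.20, the alcohol dehydrogenase gene Adh1 by 0.18 and Rdh9 by 0.32 (adjusted p = 0.0013, 0.020 and 0.034 from limma), whereas Adh4 fell by 0.20 and Rdh5, named to complete the count, by 0.16 (adjusted p = 0.036 and 0.038). The calls of Retsat, Pnpla2, Dhrs7, Adh1 and Rdh9 as higher were all lost with median centring, in which all 5 still had positive differences. The calls of Rdh5, Adh4 and Rdh9 were lost when any one of 14, 12 and 9 livers was left out, in that order. With all probes tested these 3 calls were lost as well, and those of Adh4 and Rdh9 were also lost with a classical ANOVA and with array weights.

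The enzymes that break down retinoic acid, Cyp26a1 aside, gave no higher gene. Of 8 genes, 4 were tested and 2 were lower (median -0.29). Cyp2c39, a retinoic acid hydroxylase of mouse liver, averaged 7.85 ± 0.22 in SA_15% and 8.31 ± 0.33 in Ctrl livers (SD, n = 15 each) and fell by 0.47 (adjusted p = 3.3e-04 from limma). Ugt2b1, a glucuronosyltransferase, fell by 0.39 (adjusted p = 8.4e-05). Cyp3a11 and Cyp3a13 differed by -0.19 and -0.08 (adjusted p = 0.11 and 0.42). Probes of these families can bind transcripts of close paralogs. The probe of Cyp26b1, the relative of Cyp26a1, was detected in 2 SA_15% and 7 Ctrl livers and was not tested.

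Of 8 retinoid receptor genes 5 were tested, and 1 was higher and 1 lower (median 0.01). Rxrb, the partner of the retinoic acid receptors, rose by 0.19 (limma, adjusted p = 2.4e-04), but the call was lost with median centring (0.08, adjusted p = 0.26) and in the mean over its probes. Nr2f2, an orphan receptor that binds the same repeats, fell by 0.25 (adjusted p = 0.0014). Rxra differed by -0.01 (adjusted p = 0.91) and Rarb, itself a retinoic acid target, by 0.17 (adjusted p = 0.069). Of 16 known retinoic acid targets 8 were tested, and 1 was higher and 3 were lower (median 2.2e-04). The transglutaminase gene Tgm2 averaged 11.09 ± 0.16 in SA_15% and 10.44 ± 0.22 in Ctrl livers (SD, n = 15 each) and rose by 0.65 (adjusted p = 1.0e-08), and Pck1, the gluconeogenic enzyme, fell by 0.89 (adjusted p = 1.6e-10), with Cyp26a1 and Crabp2 as the others that were lower. The probes of Cyp26a1 and Crabp2 were each detected in 4 SA_15% and 12 Ctrl livers and passed the filter mostly through the Ctrl livers. The count of lower targets therefore leans towards a difference. The target genes have other regulators besides retinoic acid.

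Other carriers that hepatocytes secrete into plasma were set beside Rbp4 and Ttr. Of 17 such genes 14 were tested, and 1 was higher and 3 were lower (median 0.01). Serpina7, which encodes the thyroxine-binding globulin, averaged 10.10 ± 0.41 in SA_15% and 9.14 ± 0.34 in Ctrl livers (SD, n = 15 each) and rose by 0.96 (adjusted p = 7.0e-07 from limma). Apoh fell by 0.31 (adjusted p = 4.2e-06), Afm, which carries vitamin E, by 0.31 (adjusted p = 0.0012) and the copper carrier gene Cp by 0.15 (adjusted p = 0.022). The other 10 did not pass the test.

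**Figure D2:**
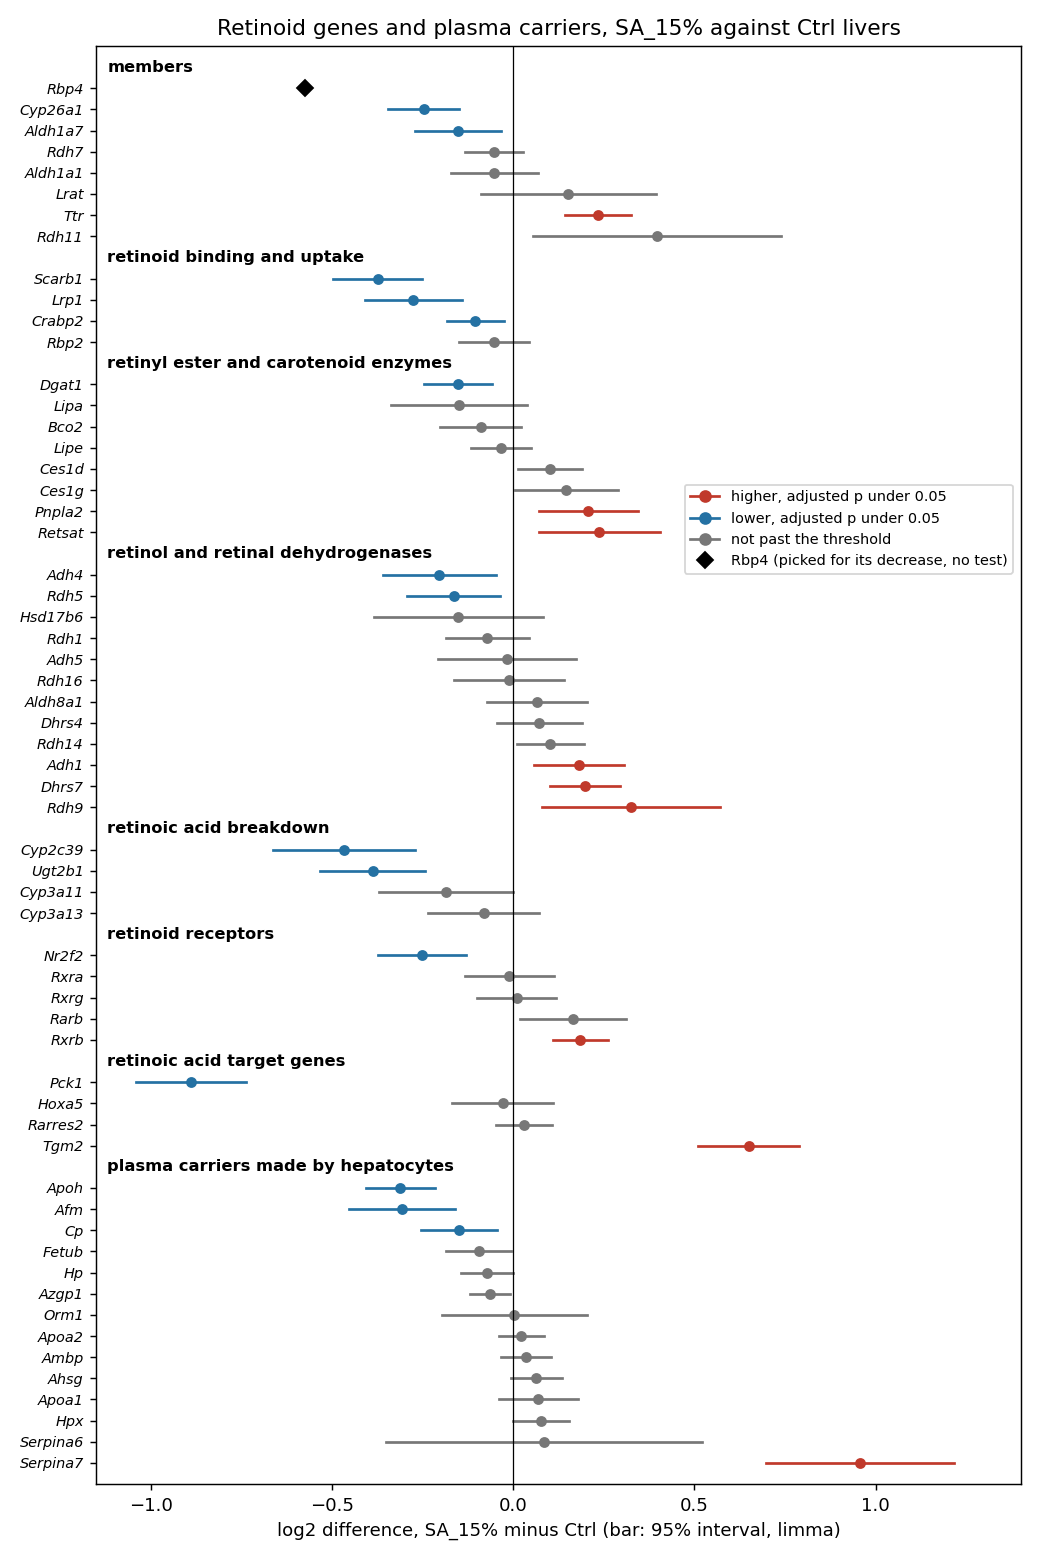
Log2 difference, SA_15% minus Ctrl (horizontal axis), of each gene past the detection filter in the groups described, with 95% intervals from limma over 15 livers per group and each gene shown once under the first group that holds it. Red marks genes called higher, blue genes called lower, grey genes that did not pass, and the black diamond Rbp4, which has no interval because it was picked for its decrease. Serpina7 at 0.96 and Pck1 at -0.89 lie farthest from 0, and most members lie within 0.25 of it.

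Markers of other cell types were measured in the same livers. Their counts stand beside the 17.1% called higher and 19.4% called lower among all probes tested. Of 11 tested stellate cell markers, a list that holds Lrat, 2 were higher (Vim and Ngfr) and none lower, and their summed level, as log2, was 12.86 to 13.34 (median 13.15) in SA_15% and 12.83 to 13.38 (median 13.15) in Ctrl livers. The probes of Col1a1, Col1a2, Pdgfrb, Gfap and Lhx2, all markers of these cells, were detected in no liver. Of 9 macrophage markers 5 were higher (Vsig4, Lyz2, C1qc, Clec4f and Cd14) and none lower, with a summed level of 10.44 to 11.64 (median 10.91) in SA_15% and 9.96 to 11.38 (median 10.54) in Ctrl livers. Of 9 endothelial markers 4 were higher (Fcgr2b, Clec4g, Oit3 and Stab2) and none lower, with 11.94 to 12.44 (median 12.16) in SA_15% and 11.71 to 12.21 (median 11.95) in Ctrl livers. The red cell genes Hba-a1 and Slc4a1 were higher too, while Alas2 differed by -0.12 (adjusted p = 0.24 from limma). The summed level over these 3 genes was 13.48 to 14.38 (median 14.12) in SA_15% and 12.51 to 13.65 (median 13.35) in Ctrl livers. Summed levels add intensities before the log2, so the brightest genes weigh most. These are Hba-a1 for the red cell genes and Dcn for the stellate cell markers. Of 6 hepatocyte markers 1 was higher (Ttr) and 4 were lower (Serpina1a, Serpina1b, Cps1 and Hnf4a), with 16.54 to 16.69 (median 16.64) in SA_15% and 16.56 to 16.71 (median 16.65) in Ctrl livers. No bile duct or adipocyte marker passed the filter. Apart from Ttr, the calls among these markers were not rerun with the alternatives. With median centring the probes called higher among all tested went from 1942 to 769. The part of these cell types in the results above was not tested. The labelled tissue was matched by bright hepatocyte genes, but the probe of Alb was detected in only 2 SA_15% and 12 Ctrl livers and that of Fgb in none, so a probe at background does not show that its gene is silent.

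The members were set against each other within each group. Over 56 pairs of the 8 detected members, 28 in each group, no correlation passed after adjustment over all pairs, by Pearson's or Spearman's coefficient. The smallest p was that of Aldh1a1 and Aldh1a7 in SA_15% livers (r = 0.65, permutation p = 0.011, adjusted p = 0.59, rho = 0.69), with r = 0.53 after the 2 livers farthest from the Aldh1a1 median were left out, and in Ctrl livers r was 0.34 (permutation p = 0.22, adjusted p = 0.82, rho = 0.26). At an unadjusted p under 0.05, 4 of the 56 pairs were counted. With median centring 2 pairs in SA_15% livers passed, Aldh1a1 with Aldh1a7 (r = 0.82, permutation test, adjusted p = 0.011) and Rbp4 with Aldh1a1 (r = 0.74, adjusted p = 0.048). The genes whose signal was most like that of Rbp4 over the 15 Ctrl livers were Timmdc1 (r = 0.75), Trmt12 (0.74), Dph5 (0.72), Ip6k2 (0.71) and Mkks (0.71), and the least alike were Msc (-0.79), Frrs1 (-0.78) and Trim65 (-0.78). These were the ends of a ranking of 7904 other genes. In SA_15% livers, which had no part in the choice, the first 5 gave r between -0.36 and 0.06 and none passed. The lowest 3 gave r of -0.47, -0.32 and -0.13 in SA_15% livers, without a test.

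The same choice in Ctrl livers was then made for each of the other members, a step added after the data had been seen, and each set of 5 genes was tested over the SA_15% livers with adjustment over all 40 pairs. By Pearson's coefficient none of the 5 genes passed for Rbp4, Ttr, Aldh1a1, Aldh1a7, Rdh7 or Cyp26a1, while 4 of 5 passed for Rdh11 and 3 of 5 for Lrat. By Spearman's coefficient 4 passed for Rdh11, 4 for Lrat and 1 for Rdh7. The Rdh7 gene was Rpl24, a ribosomal protein gene (rho = 0.65, permutation p = 0.0095, adjusted p = 0.049), for which r was 0.57 (permutation p = 0.026, adjusted p = 0.10). Some of these coefficients moved with the scaling, and with median centring r was 0.76 for Rdh7 with Rpl24 and 0.65 for Aldh1a1 with Acbd5, against 0.02 for the pair of Aldh1a1 and Acbd5 with quantile normalization.

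**Figure D3:**
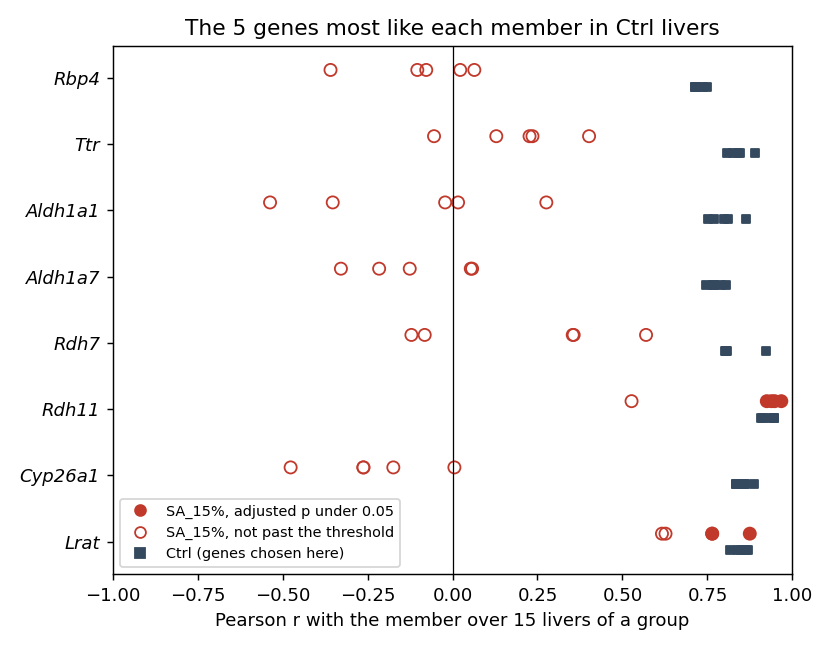
Pearson r (horizontal axis) between each member and the 5 genes most like it in the Ctrl livers, as squares for the 15 Ctrl livers in which they were chosen and as circles for the 15 SA_15% livers. Filled circles passed an adjusted p of 0.05 for Pearson r over 40 pairs, which 4 circles of Rdh11 and 3 of Lrat did and none of the other members.

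The 4 genes that followed Rdh11 were Dhcr7, Msmo1 and Erg28, which act in cholesterol synthesis, and Acss2, which makes acetyl-CoA from acetate. Over the 15 SA_15% livers r with Rdh11 was 0.97 for Dhcr7 (rho = 0.95), 0.95 for Msmo1 (rho = 0.91), 0.94 for Acss2 (rho = 0.93) and 0.92 for Erg28 (rho = 0.89), each with permutation p = 1.0e-05, the smallest that 100000 permutations can give, and adjusted p = 8.0e-05. Without the 2 livers farthest from the Rdh11 median r was 0.96, 0.92, 0.90 and 0.90 in the same order. Nit2, the remaining gene of the 5, gave r = 0.53 (permutation p = 0.045, adjusted p = 0.15, rho = 0.57). In the Ctrl livers 5 livers lay apart, with Rdh11 at 8.43 to 8.98 and Acss2 at 11.96 to 12.11, and the other 10 had Rdh11 at 7.29 to 8.08 and Acss2 at 10.58 to 10.95. The gap in Acss2 was 1.00 in the Ctrl livers, and the widest in SA_15% livers was 0.31. For Rdh11 and for each of these 4 genes, the 5 were Ctrl livers 6 to 10, an unbroken run of replicate numbers, whereas SA_15% livers 6 to 10 overlapped the other SA_15% livers. The order of processing was not given in the sources used here, and its part in the Rdh11 values was not tested. With the Ctrl livers in separate clusters no r over all of them is read. Over the 10 lower Ctrl livers alone, a split made on the Acss2 gap, r with Rdh11 was 0.43 for Dhcr7, 0.48 for Erg28, 0.56 for Acss2 and 0.36 for Msmo1. None of these passed (permutation p = 0.22, 0.16, 0.093 and 0.31, in the same order). The split was made after the values were seen. It left 10 livers over a narrow range, so nothing is read from the failure to pass.

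Taken on the same array, Rdh11 differed from its companions by group. Rdh11 minus Dhcr7 was -0.02 ± 0.12 in SA_15% and -0.29 ± 0.17 in Ctrl livers (SD, n = 15 each), a shift of 0.27 (two-sided permutation p = 6.0e-05, adjusted p = 8.0e-05 over 4 genes), and all 15 SA_15% livers were above the Ctrl median. The shift was 0.43 against Erg28 and 0.52 against Msmo1 (adjusted p = 8.0e-05 and 4.0e-05, permutation test), again with 15 of 15 SA_15% livers above the Ctrl median. Against Acss2 it was -0.08 (two-sided permutation p = 0.25), with 5 of 15 livers above. Hence Rdh11 was higher in SA_15% livers in relation to 3 genes that it followed over the SA_15% livers, although its own difference did not pass. The shifts share the same Rdh11 values and are not independent. The companions themselves differed by 0.12 (Dhcr7), -0.03 (Erg28) and -0.12 (Msmo1), which did not pass, and by 0.48 (Acss2, adjusted p = 0.045 from limma). The shifts compare changes and not levels, since signals of different probes are not on one scale.

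**Figure D4:**
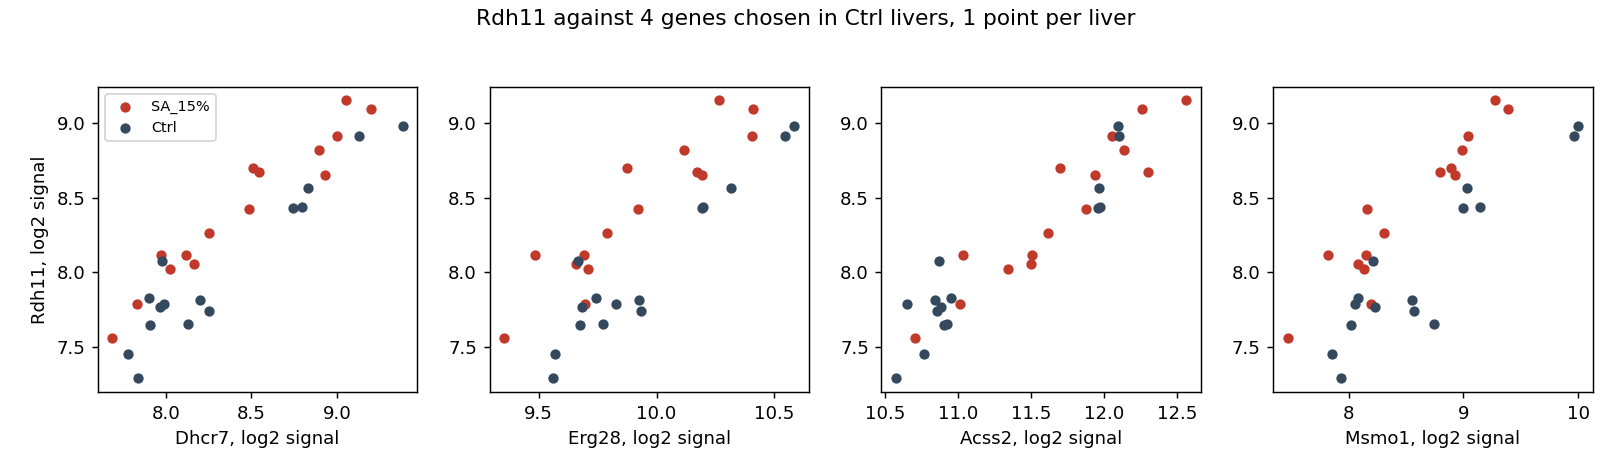
Log2 signal of Rdh11 (vertical axis) against that of Dhcr7, Erg28, Acss2 and Msmo1 (horizontal axes), with 1 point for each of 15 SA_15% livers (red) and 15 Ctrl livers (dark). SA_15% points form a line with r of 0.92 to 0.97 that lies mostly above the Ctrl points for Dhcr7, Erg28 and Msmo1 (shifts of 0.27, 0.43 and 0.52), and 5 Ctrl livers stand apart from the other 10.

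For Lrat the 3 genes that passed by Pearson's coefficient in SA_15% livers were Zeb2 (r = 0.87, rho = 0.76, permutation p = 1.0e-05, adjusted p = 8.0e-05), Glg1 (r = 0.76, rho = 0.65, permutation p = 0.0015, adjusted p = 0.0086) and Bach1 (r = 0.76, rho = 0.64, permutation p = 0.0012, adjusted p = 0.0078). Without the 2 livers farthest from the Lrat median r was 0.72 for Zeb2, 0.46 for Glg1 and 0.59 for Bach1, so that the relation with Glg1 rested on those livers (permutation p = 0.12 without them). Klf6 and Prkx gave r of 0.62 and 0.63 (permutation p = 0.014 and 0.012, rho = 0.65 and 0.69) and did not pass by Pearson's coefficient (adjusted p = 0.063 and 0.058). The set depended on the coefficient, since by Spearman's Klf6, Prkx and Glg1 passed (permutation test, adjusted p = 0.049, 0.039 and 0.049), as did Zeb2, and Bach1 did not (adjusted p = 0.051).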

How the data were processed

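The authors scanned 1 Illumina MouseRef-8 v1.1 array per liver and deposited bead signal intensities, neither normalized nor background corrected, and each of 25697 probes has a detection p-value beside it; the submitters' processing notes name GenomeStudio 2009.2. A second deposited table, of the authors' normalized intensities, was used only as an alternative. Following the study's methods, quantile normalization and a log2 transformation were applied. The 11329 probes detected (p-value under 0.05) on 15 or more of 30 arrays were tested with limma 3.58.1 in R 4.3.3 (lmFit and eBayes, SA_15% minus Ctrl, no covariates), with Benjamini-Hochberg adjustment over all of them and a threshold of 0.05. The study's one-way ANOVA with a global error was replaced by limma and approximated in the alternative named pooled error, where a probe's variance was the running median over 201 probes of like signal.

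The members and gene lists were chosen with earlier results of these data known. Groups were taken from the agent label, since the treatment text of all 30 samples, controls included, names sebacic acid. Symbols came from the platform annotation, of which 23978 probes had 1 symbol, 0 had several and 1719 had none; 23962 were updated by Entrez identifier to RefSeq (GRCm38.p6). Among several detected probes of a list gene the brightest was used. Besides the members, the text names up to 4 genes of each list by smallest p, 5 and 3 genes most and least like Rbp4, and markers past the threshold; other names were chosen after their values were seen. Correlations had two-sided tests with 100000 permutations (numpy 2.4.6). Code was tested on simulated data. Where nothing else is said, n is 15 mice a group, and the number of arrays limits precision. The columns give no chip, so no batch was fitted. The alternatives were median centring, neqc, the second table, filters, variance models, array weights, a replicate block and leaving out each liver.

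Replicate numbers were not taken to pair the mice. Over 15 pairs of equal number the correlation of deviations was -0.07 to 0.39, and 10 of 15 were above 0.1. Of 15 SA_15% livers, each set against all 15 Ctrl livers, 6 correlated best with the Ctrl liver of their own number. A link between livers of equal number was not fitted in the main test and was not tested further.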

Additional observations from a re-analysis of the deposited data

How the results depend on the processing

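No direction of a called member or gene of the retinoid and plasma carrier lists turned under any alternative run. The calls among cell type markers and red cell genes were not rerun, Ttr aside. The Ttr increase (0.22 to 0.30 on the log2 scale) and the Cyp26a1 decrease (-0.46 to -0.23) passed under every alternative that could test them; Cyp26a1 was not tested with detection on all 30 arrays or at a detection p-value under 0.01, and Rbp4 ran from -0.70 (median centring) to -0.55. Aldh1a7 did not pass with all probes tested (-0.15, adjusted p = 0.057) or array weights (-0.12, adjusted p = 0.10); leaving out 1 liver gave -0.18 to -0.13, and SA_15% liver 1, 2, 4, 10, 11 or 13 or Ctrl liver 2, 5, 6, 9, 10, 12 or 15 ended the call (adjusted p up to 0.071). Rdh11 passed with the pooled error (0.40, adjusted p = 2.1e-12) and array weights (0.43, adjusted p = 0.040), and ran from 0.34 to 0.46 with 1 liver left out. Lrat passed with the pooled error (0.15, adjusted p = 0.0089).

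With median centring the Rdh7 probes passed as lower (-0.15 and -0.14), 769 probes were higher and 3066 lower (20.1% of calls higher in place of 46.9%), no ester and carotenoid enzyme, dehydrogenase or receptor gene was higher (0 in each), 2 ester and carotenoid enzymes were lower, 5 plasma carriers were higher, and 2 member pairs in SA_15% livers were correlated (Aldh1a1 with Aldh1a7, r = 0.82, adjusted p = 0.011, and Rbp4 with Aldh1a1, r = 0.74, adjusted p = 0.048). With the pooled error 4 ester and carotenoid enzymes were higher and 2 lower, 2 receptors and 3 targets were higher. Lower dehydrogenases numbered 0 with all probes and 1 with a classical ANOVA or array weights, and 0 to 2 with 1 liver left out; lower targets numbered 1 under both stricter detection filters. The mean over probes left 0 receptors higher. Higher receptors and targets numbered 1 to 2 each with 1 liver left out.

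The replicate number as a block, which was not taken to pair the mice, gave 2129 probes higher and 2330 lower. Rdh11 then passed (0.40, adjusted p = 0.013 from limma). Lower dehydrogenases numbered 1 (Rdh5 did not pass, adjusted p = 0.055), higher receptors 2 and higher targets 2. The block changed no other call of a member. Of 15 SA_15% livers, each set against all 15 Ctrl livers, 6 correlated best with the one of their own number. The cause of these changes was not tested. Signals near the background limit Cyp26a1, Crabp2, Rbp2, Rdh10, Cyp26b1 and Alb.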
